A study of Mus musculus with 32 samples.

Results

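The nuclear lamina and the linker of nucleoskeleton and cytoskeleton (LINC) complex were examined through 9 genes, taken by symbol from the 54838 genes of the expected count table. They comprised the lamins (*Lmna*, *Lmnb1*, *Lmnb2*), emerin (*Emd*), the SUN proteins (*Sun1*, *Sun2*) and the nesprins (*Syne1*, *Syne2*, *Syne3*). RNA of tibialis anterior (TA) muscle was sequenced from wild-type (WT) and *Mtm1* knockout (KO) mice, a model of X-linked myotubular myopathy, at postnatal day (P)1, P14, P21 and P35, with n=4 libraries per genotype and age and 32 libraries in all. Every mouse was of the C57BL6/J strain background, and the labels name no treatment. The KO allele is a targeted deletion in *Mtm1* of the whole animal, so it is not limited to muscle fibers. The labels do not tie libraries to named animals. Replicates were read as separate mice, because the methods give n=4 per genotype for the later 3 ages, a statement that does not cover P1, and *P*-values measure the spread between these libraries.

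The lamina is a meshwork of intermediate filaments under the inner nuclear membrane. *Lmna* encodes lamins A and C by alternative splicing, the lamins of differentiated cells, whereas *Lmnb1* and *Lmnb2* encode the B-type lamins. Emerin is an inner nuclear membrane protein bound to the lamina. SUN proteins span the inner nuclear membrane and bind, in the space between both membranes, the KASH domains of the nesprins, which reach the cytoskeleton from the outer membrane. In muscle fibers this bridge holds and spaces the nuclei, nesprin-1 (*Syne1*) is prominent among its parts, and inherited defects of *LMNA* or *EMD* cause Emery-Dreifuss muscular dystrophy. Misplaced, central nuclei are a defining feature of myotubular myopathy.

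Counts summed to 49321035 to 85631408 per library, and each of the 9 genes held at least 122 counts in every library. Levels are given as CPM, the counts of a gene scaled to a common library size, after scaling of library sizes by TMM over all 32 libraries. *Mtm1* itself was at 2.32 to 4.51 CPM in the 16 KO libraries and at 5.26 to 24.9 CPM in the 16 WT libraries, with no overlap within any age, although the KO against WT difference at P1 (log2 fold change -0.98) had an edgeR adjusted *P*=0.0668. Marker genes of the myofiber were present in every library, with a summed level of 15511 CPM or more. Genes of skin keratinocytes reached 1470.0 to 5707 CPM at P1 and at most 6.16 CPM at later ages, in both genotypes. KO replicate 4 of P1 stood apart from the other KO libraries of that age. Its mitochondrial share of counts was 5.20%, against 3.21% to 3.35%. Its summed myofiber level was 15511 CPM, against 22593 to 30942 CPM. It was also the lowest of its group for *Lmna*, *Lmnb1*, *Lmnb2*, *Sun1*, *Sun2* and *Syne3*. The mitochondrial share of counts at P35 was 15.6% ± 2.3 in WT and 10.4% ± 0.12 in KO muscle (s.d., n=4). In whole muscle, fewer cells of a type and less RNA per cell cannot be told apart.

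A gene was called different where the edgeR quasi-likelihood test gave a Benjamini-Hochberg adjusted *P*-value under 0.01 and a fold change over 1.5. Between genotypes, edgeR called 0 of the 9 genes at P1, where 0.0442% of all genes tested were called, and 0 at P14, where 0.0318% were called. DESeq2 also called 0 at both ages. At an unadjusted edgeR *P*-value under 0.05, 2 members passed at P1 (10.9% of all genes) and 1 at P14 (6.82%). At P21, 1 of 9 was called, *Lmna*, higher in KO muscle (background 4.67% of genes called, 3.18% higher and 1.5% lower). At P35, 2 of 9 were called, *Lmna* higher and *Syne2* lower (background 16% of genes, 8.49% higher and 7.52% lower). At an adjusted *P*-value under 0.05 with no fold threshold, 3 members were higher and 1 was lower at P21 (background 21% of genes, 11.4% higher and 9.57% lower), and 2 were higher and 1 was lower at P35 (background 41.4% of genes, 21.4% higher and 20.1% lower). The median log2 fold change of the 9 genes was -0.02, 0.02, -0.02 and -0.14 at the 4 ages in turn, against 0.01, 0.00029, 0.0083 and 0.04 for all genes tested. *Lmna* stood at the upper end of the members from P14 on. Scaling by library totals in place of TMM, which moved the median gene by 0.20 at P21 and 0.44 at P35, changed the split of all calls from 482 higher of 709 to 1052 of 1157 at P21 and from 1324 of 2496 to 4350 of 4676 at P35.

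**Figure D1:**
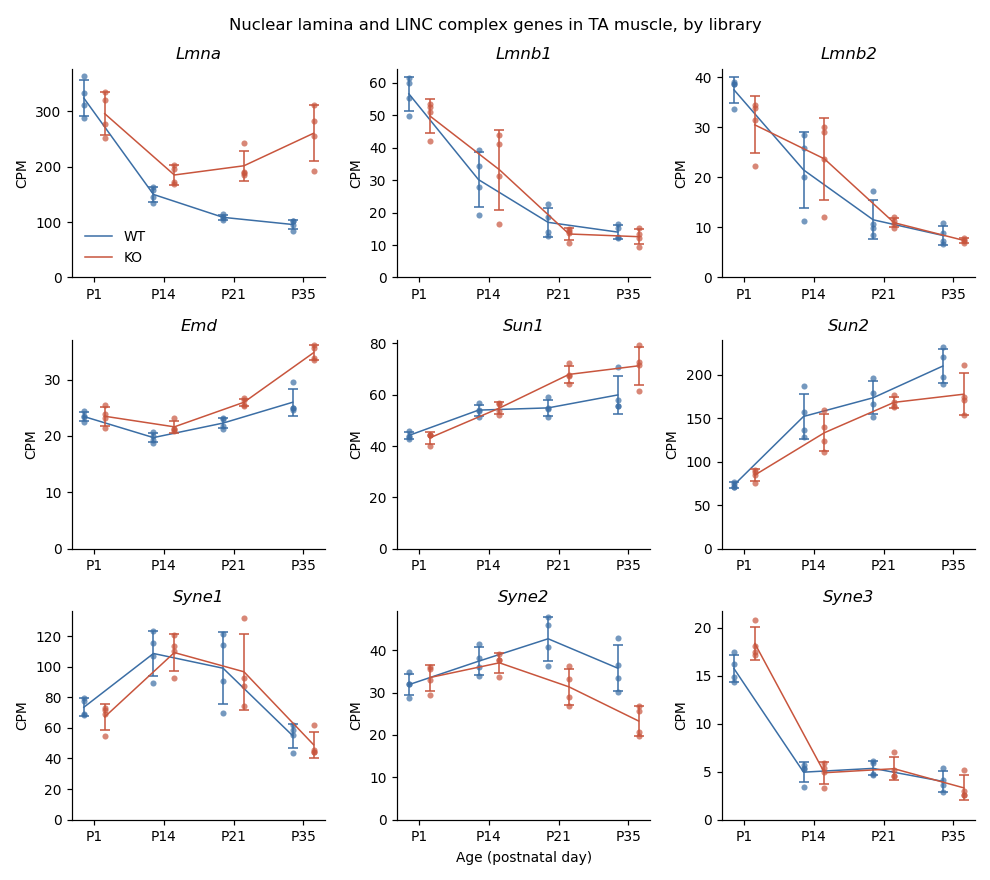
CPM of the 9 genes in each of the 32 libraries (points) against age, with the mean and s.d. of 4 libraries (lines and bars) for WT (blue) and KO (red). Each gene has its own y axis from 0. The *Lmna* means separated after P1, to 95.6 CPM in WT and 260.3 CPM in KO muscle at P35.

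The sequences before the transcription start sites are shown for the 4 members with an adjusted *P*-value under 0.05 between genotypes at P21 or P35. They are the RefSeq windows of 250 bases upstream of each start on GRCm38.p6, cut to the longest stretch without an annotated exon, written 5′ to 3′ on the strand of the gene. Capitals mark the GC box (GGGCGG), the CCAAT box (CCAAT), the TATA box (TATAAA), the AP-1 site (TGANTCA), the E-box (CAGCTG) and the cAMP response element (TGACGTCA), each searched on both strands.
*Lmna* first start, chr3:88503387-88503602, minus strand, bases -250 to -35: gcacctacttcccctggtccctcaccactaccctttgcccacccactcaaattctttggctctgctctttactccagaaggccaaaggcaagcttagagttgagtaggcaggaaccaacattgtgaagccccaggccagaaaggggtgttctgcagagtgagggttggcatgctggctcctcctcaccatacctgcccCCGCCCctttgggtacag
*Lmna* second start, chr3:88493313-88493562, minus strand, bases -250 to -1: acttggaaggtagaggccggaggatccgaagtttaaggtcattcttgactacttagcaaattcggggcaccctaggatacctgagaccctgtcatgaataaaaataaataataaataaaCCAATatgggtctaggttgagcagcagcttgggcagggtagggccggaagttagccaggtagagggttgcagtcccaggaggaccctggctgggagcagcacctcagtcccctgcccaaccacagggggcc
*Emd*, chrX:74254437-74254686, plus strand, bases -250 to -1: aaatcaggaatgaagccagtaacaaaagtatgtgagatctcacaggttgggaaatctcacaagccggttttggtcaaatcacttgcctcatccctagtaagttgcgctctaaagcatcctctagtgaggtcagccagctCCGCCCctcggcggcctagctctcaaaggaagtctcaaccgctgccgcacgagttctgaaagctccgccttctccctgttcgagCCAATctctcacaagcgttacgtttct
*Sun1* first start, chr5:139200387-139200636, plus strand, bases -250 to -1: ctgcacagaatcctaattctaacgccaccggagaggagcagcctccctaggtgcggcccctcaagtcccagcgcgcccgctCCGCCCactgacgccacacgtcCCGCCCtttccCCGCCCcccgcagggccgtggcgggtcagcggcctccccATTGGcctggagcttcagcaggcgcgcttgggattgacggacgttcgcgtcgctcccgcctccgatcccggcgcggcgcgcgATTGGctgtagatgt
*Syne2*, chr12:75818189-75818317, plus strand, bases -129 to -1: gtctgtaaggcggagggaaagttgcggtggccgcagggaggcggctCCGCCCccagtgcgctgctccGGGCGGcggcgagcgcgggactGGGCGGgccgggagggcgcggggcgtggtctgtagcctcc
The first *Lmna* window held 1 GC box, at base -52, and the second held 1 CCAAT box, at base -131. *Emd* held a GC box at -111 and a CCAAT box at -27. The *Sun1* window held 3 GC boxes and 2 CCAAT boxes, and *Syne2* held 3 GC boxes between bases -83 and -40. The rest of the *Syne2* window, not printed because only the longest stretch without an exon is shown, held an E-box at -207. Of all 32851 RefSeq windows of this length, 32.7% held a GC box, 33.8% a CCAAT box, 12.4% a TATA box, 6.75% an AP-1 site, 13.0% an E-box and 1.55% a cAMP response element. These are matches of letters only. Windows were taken for 8 of the 9 genes, *Lmnb1* was left out of the search, and the second window of *Sun1* is not shown.

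*Lmna* (ENSMUSG00000028063, chromosome 3, 88480147 to 88509956, minus strand) encodes the A-type lamins. Its mean fell at each step of age in WT muscle, whereas in KO muscle it fell from P1 to P14 only. No fall was called after P14 in either genotype. At P1 the WT libraries were at 288, 312, 363 and 332 CPM and the KO libraries at 335, 320, 277 and 252 CPM. The groups overlapped, and the log2 fold change of KO against WT was -0.12 ± 0.11 (s.e., edgeR adjusted *P*=0.719). At P14 the WT libraries were at 163, 157, 145 and 135 CPM and the KO libraries at 203, 196, 172 and 169 CPM. Every KO library was above every WT library. The log2 fold change was 0.30 ± 0.09 (edgeR adjusted *P*=0.532). The labels give no pairing, but same-numbered libraries of both genotypes correlated in all pairs at P14 only. With these libraries paired in an alternative fit, the log2 fold change stayed at 0.30 (edgeR adjusted *P*=0.00358), below the fold threshold. *Lmna* and *Emd* were the 2 members without overlap at P14, where 4.84% of genes tested had none. At P21 and P35 there were 3 each, with 24.7% and 39.6% of all genes.

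At P21 *Lmna* measured 103, 114, 107 and 110 CPM in WT, compared with 190, 242, 186 and 189 CPM in KO muscle. All 4 KO libraries lay far above the WT range, with KO replicate 2 the highest. The level was 1.87-fold higher in KO muscle (log2 fold change 0.91 ± 0.10, edgeR adjusted *P*=0.000552). At P35 it measured 95.1, 103, 83.6 and 101 CPM in WT, compared with 193, 255, 282 and 312 CPM in KO muscle. The groups were again apart, and the KO libraries ranged more widely than the WT libraries. The level was 2.77-fold higher (log2 fold change 1.47 ± 0.14, edgeR adjusted *P*=0.000131). *Lmna* ranked 90th of 15179 genes tested by *P*-value at P21 and 191st of 15595 at P35.

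The course of *Lmna* with age differed between genotypes. In WT muscle its level dropped from 323.8 ± 32 CPM at P1 to 149.9 ± 13 CPM at P14, and then to 109 ± 4.5 and 95.6 ± 8.7 CPM (s.d., n=4). In KO muscle the 4 means in turn were 296 ± 38, 185 ± 17, 202 ± 27 and 260.3 ± 51 CPM. The fall from P1 to P14 was called in both genotypes, at log2 fold changes of -1.12 ± 0.09 in WT (edgeR adjusted *P*=2.89e-06) and -0.70 ± 0.12 in KO muscle (edgeR adjusted *P*=0.00052). From P14 to P21 the WT value was -0.48 ± 0.07 (edgeR adjusted *P*=0.00266), under the fold threshold, and the KO value 0.11 ± 0.11 (edgeR adjusted *P*=0.477). From P21 to P35 the KO value was 0.38 ± 0.15 (edgeR adjusted *P*=0.0837). The WT step was not called either, and its log2 fold change was -0.26 to -0.18 under the other processing settings.

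The change of the genotype difference itself was tested as an interaction over all 32 libraries. Between neighboring ages 0 members passed an adjusted *P*-value of 0.01 in edgeR or DESeq2, with 0.0161%, 0.425% and 0.463% of genes called by edgeR for P14 against P1, P21 against P14 and P35 against P21. At an unadjusted edgeR *P*-value under 0.05, 2, 3 and 2 members passed in these comparisons, against 6.46%, 12.9% and 17.4% of genes. For *Lmna* the genotype difference grew by 0.59 ± 0.17 from P14 to P21 (edgeR adjusted *P*=0.0729) and by 0.55 ± 0.17 from P21 to P35 (edgeR adjusted *P*=0.0741) on the log2 scale. Over the longer spans, chosen after these values were seen, the *Lmna* difference was larger at P35 than at P14 by 1.14 ± 0.17 (edgeR adjusted *P*=3.6e-05, 8.53% of genes called) and larger than at P1 by 1.58 ± 0.17 (edgeR adjusted *P*=1.29e-07, 15.9% of genes called). *Syne2* passed in both spans and *Emd* in the longer one. The *Syne2* call between P35 and P14 was lost without a filter, with the 16 libraries of both ages alone, with the replicate block, with library totals (-0.25) and without any one of 11 of the 16 libraries (-0.63 to -0.50). At an adjusted *P*-value under 0.05, 5 members differed between P35 and P1 (27.6% of genes).

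*Lmnb1* (chromosome 18, 56707813 to 56753424, plus strand) and *Lmnb2* (chromosome 10, 80901203 to 80918245, minus strand) encode the B-type lamins. Both were lower in every P35 library than in any P1 library of either genotype, and neither was called between genotypes at any age. At P1 *Lmnb1* was at 49.9, 55.2, 61.5 and 59.8 CPM in WT, compared with 53.6, 52.7, 50.9 and 42.1 CPM in KO muscle. By P35 it was at 12.5, 16.3, 12.1 and 15.1 CPM in WT, compared with 13.5, 9.44, 12.3 and 15.1 CPM in KO muscle. The genotypes overlapped at both ends of the series. The KO against WT log2 fold changes of *Lmnb1* were -0.17 ± 0.09, 0.14 ± 0.31, -0.33 ± 0.19 and -0.13 ± 0.15 in the order of age (edgeR adjusted *P*=0.551, 0.984, 0.244 and 0.521). At P35 the 95% interval of that difference was -0.43 to 0.17, which leaves out a change as large as that of *Lmna* in the same libraries.

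*Lmnb2* was lower than *Lmnb1* per exon length in every group mean. It was at 33.6, 38.7, 38.6 and 39 CPM in WT, compared with 31.4, 34.5, 33.8 and 22.2 CPM in KO muscle at P1. At P35 it was at 6.62, 10.8, 7.22 and 8.9 CPM in WT, compared with 7.51, 7.35, 6.85 and 7.93 CPM in KO muscle. The KO libraries lay within the WT range at P35. The KO against WT log2 fold change was -0.28 ± 0.13 at P1 (edgeR adjusted *P*=0.47) and -0.16 ± 0.15 at P35 (edgeR adjusted *P*=0.436).

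From P1 to P14 the fall was called in WT for *Lmnb1* (-0.92 ± 0.18, edgeR adjusted *P*=0.00116) and for *Lmnb2* (-0.81 ± 0.23, edgeR adjusted *P*=0.00854). The *Lmnb2* call was lost without any one of the 4 WT P1 libraries or WT P14 replicate 3 (log2 fold change -0.86 to -0.78). In KO muscle the same step gave -0.61 ± 0.25 (edgeR adjusted *P*=0.0501) and -0.39 ± 0.26 (edgeR adjusted *P*=0.196), and the later step from P14 to P21 was called for *Lmnb1* (-1.33 ± 0.27, edgeR adjusted *P*=0.00792). That call was lost without any one of the P14 or P21 KO libraries other than P14 replicate 4, with the replicate block and with library totals. The P14 libraries spread widely: replicate 4 was lowest in both genotypes for *Lmnb1*, at 19.3 CPM in WT and 16.6 CPM in KO muscle, and for *Lmnb2*, at 11.4 and 12 CPM. In the same replicate 4 libraries the summed level of 8 cell division genes (*Mki67*, *Top2a*, *Cdk1*, *Ccnb1*, *Ccna2*, *Bub1*, *Pcna*, *Mcm2*) was 89.7 CPM in WT and 68.9 CPM in KO muscle, each the lowest of its group. The part of dividing cells in the B-type lamin levels was not tested.

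**Figure D2:**
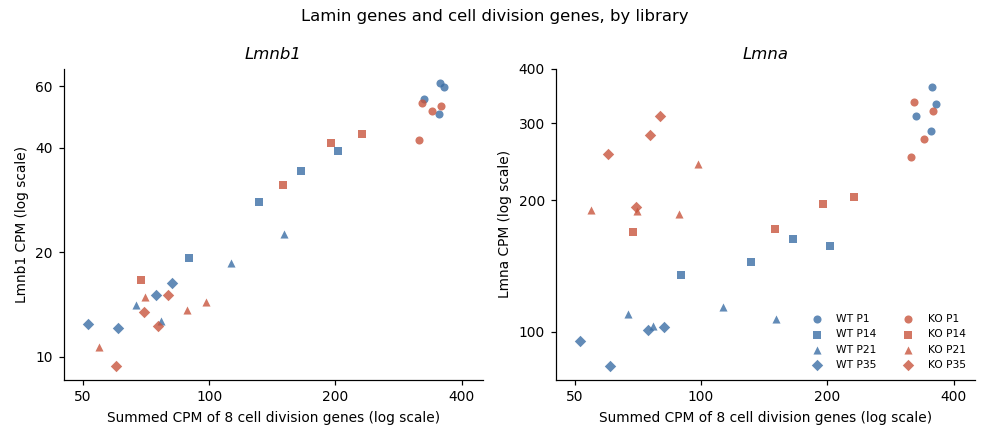
CPM of *Lmnb1* (left) and *Lmna* (right) in each of the 32 libraries against the summed CPM of 8 cell division genes, both axes on a log scale, with color for genotype and shape for age. *Lmnb1* runs along one band in both genotypes, from about P35 at the lower left to P1 at the upper right, whereas the P21 and P35 KO libraries lie at 186 CPM *Lmna* or more, above the WT libraries of the same division level.

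Since a ratio of both genes in one library does not depend on scaling between libraries, *Lmna* was set against *Lmnb1*. The ratio of their counts was 4.74 to 8.15 in WT and 12.7 to 17.7 in KO muscle at P21, and 6.29 to 7.63 in WT and 14.3 to 27.1 in KO muscle at P35. Neither age had any overlap. The KO minus WT difference of the mean log2 ratio was 1.2 at P21 and 1.59 at P35, each with an exact two-sided permutation *P*=0.0286, the smallest that 4 against 4 libraries can give (0.0571 after adjustment over 12 ratio tests). At P1 and P14 it was 0.05 (exact *P*=0.343) and 0.21 (exact *P*=0.6). Per exon length, *Lmna* made up 71.1% ± 2.2 of the 3 lamin genes in WT muscle at P35 and 87.9% ± 2.7 in KO muscle (s.d., n=4), against 66.5% ± 0.79 and 67.9% ± 1.8 at P1.

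*Emd* (chromosome X, 74254687 to 74261548, plus strand), the gene of emerin, was higher in KO muscle at P21 and P35, by less than the fold threshold. At P21 the WT libraries were at 23.1, 23, 21.2 and 21.8 CPM and the KO libraries at 25.5, 26.4, 25.4 and 26.7 CPM. At P35 they were at 29.5, 24.9, 24.5 and 25 CPM in WT and at 36.2, 33.6, 35.5 and 33.8 CPM in KO muscle. The groups did not overlap at either age, and WT replicate 1 was the highest of its group at P35. The log2 fold changes were 0.23 ± 0.06 at P21 (edgeR adjusted *P*=0.024) and 0.45 ± 0.08 at P35 (1.36-fold, edgeR adjusted *P*=0.0019). With library totals, under which the median gene was at 0.44, the P35 value was 0.85 and called (edgeR adjusted *P*=4.05e-05). At P1 and P14 they were 0.02 ± 0.06 (edgeR adjusted *P*=0.935) and 0.13 ± 0.06 (edgeR adjusted *P*=0.734). In KO muscle *Emd* was higher at P35 than at P21 by 0.44 ± 0.06 (edgeR adjusted *P*=0.00276), against 0.21 ± 0.08 in WT (edgeR adjusted *P*=0.0875). The genotype difference at P35 exceeded that at P1 by 0.42 ± 0.09 in the interaction (edgeR adjusted *P*=0.000631). *Emd* shares 343 exon bases with the pseudogene *Gm14686*, which held at most 11.45 counts, and its expected counts were not whole numbers, so that reads could be split between both.

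*Sun1* (chromosome 5, 139200637 to 139249840, plus strand) and *Sun2* (chromosome 15, 79724070 to 79742536, minus strand) encode the SUN proteins of the inner nuclear membrane. *Sun1* was at 54.8, 51.5, 54.3 and 58.9 CPM in WT, compared with 67.8, 67.4, 64.1 and 72.3 CPM in KO muscle at P21. Every KO library was above the WT range. The log2 fold change was 0.32 ± 0.06 (edgeR adjusted *P*=0.00759), 1.25-fold and so not called. At P35 the *Sun1* libraries were at 70.7, 57.8, 55.7 and 55.6 CPM in WT, compared with 72.7, 61.3, 79.5 and 71.7 CPM in KO muscle. Here WT replicate 1 lay within the KO range, and the log2 fold change was 0.27 ± 0.11 (edgeR adjusted *P*=0.0624). With library totals, under which the median gene was at 0.44, it was 0.68 and called (edgeR adjusted *P*=0.00035).

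*Sun2* had the highest mean level per exon length of the members in WT muscle from P14 on, although its libraries overlapped those of *Lmna* at P14. In WT it was at 70.3, 71.1, 74.4 and 76.8 CPM at P1 and at 232, 197, 190 and 221 CPM at P35. In KO muscle it was at 87.8, 85, 90.3 and 75.4 CPM at P1 and at 211, 154, 171 and 174 CPM at P35. The genotypes overlapped at both ages. The rise from P1 to P14 was called in both, at 1.05 ± 0.11 in WT (edgeR adjusted *P*=1.7e-05) and 0.63 ± 0.12 in KO muscle (edgeR adjusted *P*=0.00104), and neither was called when libraries were scaled by their totals (0.26 in WT and -0.10 in KO muscle). The KO call was lost without replicate 4 of P1 or of P14 (log2 fold change 0.57 and 0.55). Between genotypes the log2 fold changes were 0.22 ± 0.07, -0.19 ± 0.14, -0.03 ± 0.08 and -0.22 ± 0.11 in the order of age (edgeR adjusted *P*=0.303, 0.899, 0.802 and 0.141).

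The counts of *Sun1* and *Sun2* changed their proportion with age. In WT muscle the ratio of *Sun1* to *Sun2* counts went from 0.593 to 0.613 at P1 to a range of 0.252 to 0.304 at P35. In KO muscle it was 0.489 to 0.528 at P1 and 0.344 to 0.464 at P35. The KO libraries were below the WT libraries at P1 and above them at P21 and P35, without overlap at these 3 ages. The KO minus WT differences of the mean log2 ratio were -0.24, 0.21, 0.35 and 0.50 from the first age to the last (exact two-sided permutation *P*=0.0286, 0.229, 0.0286 and 0.0286, or 0.0571, 0.305, 0.0571 and 0.0571 after adjustment).

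**Figure D3:**
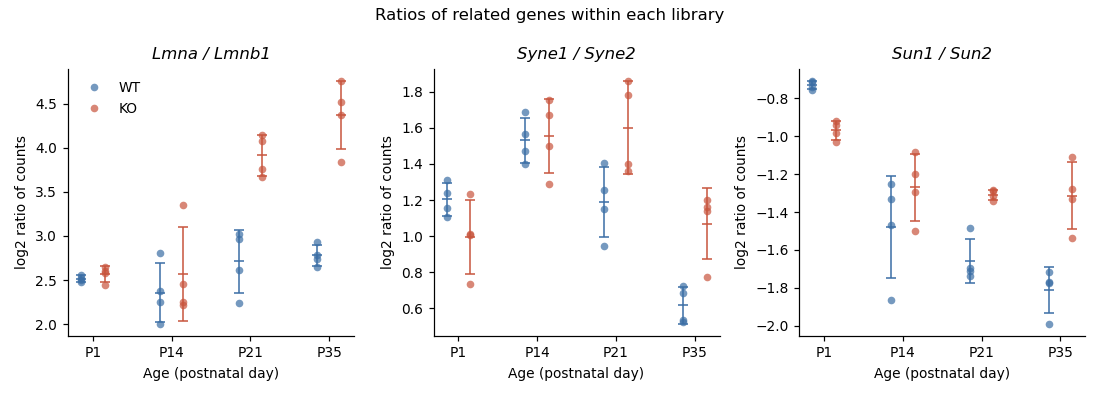
Log2 ratio of the counts of *Lmna* to *Lmnb1*, *Syne1* to *Syne2* and *Sun1* to *Sun2* in each library (points) against age, with the mean and s.d. of 4 libraries, for WT (blue) and KO (red). The *Lmna* to *Lmnb1* ratio is 1.2 higher in KO muscle at P21 and 1.59 higher at P35, and the *Sun1* to *Sun2* ratio crosses from 0.24 lower at P1 to 0.50 higher at P35.

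Among the nesprin genes, *Syne2* gave the one call of lower expression in KO muscle. The gene (chromosome 12, 75818134 to 76110926, plus strand) encodes nesprin-2. At P21 it was at 45.9, 36.3, 47.8 and 40.9 CPM in WT, compared with 36.3, 26.9, 33.2 and 29 CPM in KO muscle. At P35 it was at 33.5, 30.2, 42.9 and 36.4 CPM in WT, compared with 25.8, 26.9, 19.8 and 20.7 CPM in KO muscle. One library of each genotype met at about the same level at P21, and the groups were apart at P35. The log2 fold changes were -0.44 ± 0.11 at P21 (edgeR adjusted *P*=0.0248) and -0.59 ± 0.14 at P35 (0.663-fold, edgeR adjusted *P*=0.00729). At P1 and P14 they were 0.09 ± 0.09 (edgeR adjusted *P*=0.719) and -0.02 ± 0.08 (edgeR adjusted *P*=0.996). The genotype difference at P35 was lower than at P14 by 0.60 ± 0.16 and than at P1 by 0.69 ± 0.16 on the log2 scale (interaction, edgeR adjusted *P*=0.00956 and 0.00197).

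The P35 call of *Syne2* lay at the edge of both thresholds. It was lost without WT replicate 1, 3 or 4 or KO replicate 3 or 4 (log2 fold change -0.63 to -0.50), without a filter (-0.58), with at least 10 counts in every library (-0.57) and with the replicate block (-0.59). With library totals it was -0.19 (edgeR adjusted *P*=0.291), where the median over all genes was 0.44, so that *Syne2* remained below the median gene by about the same distance.

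*Syne1* (chromosome 10, 5020917 to 5551482, minus strand), the gene of nesprin-1, was higher at P14 than at P1 and lower again at P35 in both genotypes. In WT it was at 123, 115, 107 and 89.3 CPM at P14 and at 55.4, 43.8, 61.8 and 58.6 CPM at P35. In KO muscle it was at 110, 120, 114 and 92.3 CPM at P14 and at 44.2, 61.9, 44.4 and 45.5 CPM at P35. The genotypes overlapped at both ages. Between them the log2 fold changes were -0.12 ± 0.10, 0.01 ± 0.11, -0.02 ± 0.20 and -0.14 ± 0.14 in the order of age (edgeR adjusted *P*=0.696, 1.0, 0.946 and 0.458). The rise from P1 to P14 was 0.55 ± 0.10 in WT (edgeR adjusted *P*=0.000641, under the fold threshold) and 0.67 ± 0.12 in KO muscle (edgeR adjusted *P*=0.000572, called). Both turned to -0.20 and -0.03 with library totals, under which the median gene stood at -0.85 and -0.81. From P21 to P35 the fall was -0.87 ± 0.17 in WT (edgeR adjusted *P*=0.012) and -0.96 ± 0.18 in KO muscle (edgeR adjusted *P*=0.00679). The KO call was lost without any one KO library of either age other than P21 replicate 4 and P35 replicate 2. It was also lost with the replicate block and with library totals.

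The ratio of *Syne1* to *Syne2* counts was 1.44 to 1.65 in WT and 1.71 to 2.3 in KO muscle at P35. The groups did not overlap, and the KO minus WT difference of the mean log2 ratio was 0.45 (exact two-sided permutation *P*=0.0286, adjusted 0.0571). At P1, P14 and P21 it was -0.21, 0.02 and 0.41 (exact *P*=0.0857, 0.857 and 0.0857).

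*Syne3* (chromosome 12, 104929933 to 105009809, minus strand), the gene of nesprin-3, which links the nucleus to intermediate filaments through plectin, had the largest fall of the 9 genes from P1 to P14. It went from 14.9, 14.4, 16.2 and 17.5 CPM at P1 to 5.41, 5.72, 5.32 and 3.41 CPM at P14 in WT muscle. In KO muscle it went from 20.8, 17.5, 18.1 and 17.1 CPM to 5.96, 5.35, 5.02 and 3.29 CPM. The ages were far apart in both genotypes. The log2 fold changes were -1.68 ± 0.15 in WT (edgeR adjusted *P*=4.9e-06) and -1.93 ± 0.17 in KO muscle (edgeR adjusted *P*=6.92e-06). Keratinocyte genes, as given above, also dropped over this step. The mean summed level of fibroblast genes fell from 14389 to 6470 CPM in WT and from 12340 to 5626 CPM in KO muscle. That of myofiber genes rose from 26487 to 146015 CPM in WT and from 23423 to 130275 CPM in KO muscle. The part of these cells in the fall of *Syne3*, and in the changes of the other members from P1 to P14, was not tested. Between genotypes *Syne3* gave 0.24 ± 0.09, -0.02 ± 0.21, -0.00057 ± 0.16 and -0.24 ± 0.28 at the 4 ages (edgeR adjusted *P*=0.379, 1.0, 0.998 and 0.521).

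**Figure D4:**
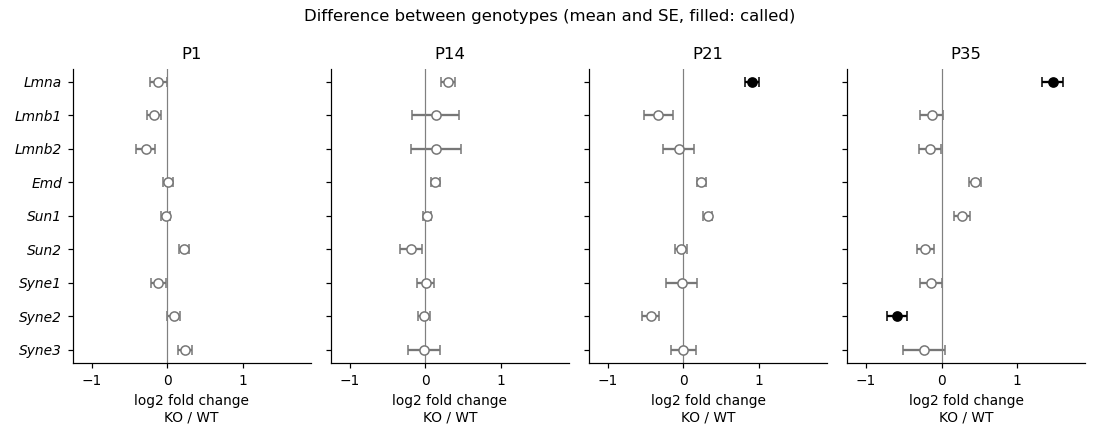
Log2 fold change of KO against WT for the 9 genes at each age, as the edgeR estimate with its standard error, filled where called. *Lmna* moves from -0.12 at P1 to 1.47 at P35, *Syne2* reaches -0.59 at P35, and the points of the other genes stay within 0.45 of 0.

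Across the first step, from P1 to P14, 5 of the 9 genes were called in WT and 4 of 9 in KO muscle, where 55.1% and 52.6% of all genes were called (24.7% higher and 30.4% lower in WT, 23.5% and 29.1% in KO muscle). In WT these were *Lmna*, *Lmnb1*, *Lmnb2* and *Syne3*, lower, and *Sun2*, higher. In KO muscle they were *Lmna* and *Syne3*, lower, and *Sun2* and *Syne1*, higher. Of all calls, 4304 of 9601 were higher in WT and 4168 of 9328 in KO muscle, against 1598 of 11623 and 1630 of 11246 with library totals. From P14 to P21, edgeR called 0 members in WT (5.53% of genes), *Lmnb1* in KO muscle (7.04%), and DESeq2 called 1 in WT. From P21 to P35, edgeR called 0 in WT (2.45%), *Syne1* in KO muscle (4.01%), and DESeq2 again called 1 in WT. At an unadjusted edgeR *P*-value under 0.05, 4 members passed in WT in each of these later steps (39.6% and 34.4% of genes). At an adjusted *P*-value under 0.05 with no fold threshold, 9 of 9 passed from P1 to P14 in WT (79.4% of genes) and 5 of 9 in KO muscle (73.8%). The later steps gave 2 in WT (25.6%) and 5 in KO muscle (27.6%) from P14 to P21, and 1 in WT (17.7%) and 4 in KO muscle (23.9%) from P21 to P35.

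The order of the members per exon length changed with it. In WT muscle at P1 *Lmna* led with 55.5 ± 5.5 CPM per kb, followed by *Lmnb1* at 19.1 ± 1.7 and *Sun2* at 13.5 ± 0.55 (s.d., n=4). *Emd* (9.32 ± 0.31) and *Lmnb2* (8.74 ± 0.6) came next and overlapped, then *Sun1* (5.81), *Syne3* (2.84), *Syne1* (1.81) and *Syne2* (1.19). At P35 in WT the order was *Sun2* (38.7 ± 3.6), *Lmna* (16.4 ± 1.5), *Emd* (10.3), *Sun1* (7.89), *Lmnb1* (4.73), *Lmnb2* (1.96), *Syne1* (1.36), *Syne2* (1.34) and *Syne3* (0.721), where *Syne1* and *Syne2* overlapped. In KO muscle at P35 *Lmna* (44.6 ± 8.7 CPM per kb) and *Sun2* (32.8 ± 4.4) overlapped at the top, and *Syne2* (0.872) and *Syne3* (0.6000) overlapped at the bottom. *Syne1* and *Syne2* have merged exons of 40491 and 26726 bases, so that short isoforms count for less on this scale.

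Over the 32 libraries, *Lmnb1* and *Lmnb2* were the members most alike in log2 CPM, with Pearson r=0.97, whereas *Sun2* ran against *Lmnb1* (r=-0.89) and against *Syne3* (r=-0.90). The genes closest to *Lmnb1* among 18583 were *Ttk* and *Tpx2*, both at r=0.98 and both genes of mitosis. *Pnmal2* (r=0.98) and *Spats2l* (0.97) were closest to *Lmnb2*. *Lmna* was closest to *2310022B05Rik* and *Gm28653* (0.97 each), *Emd* to *Phf1* (0.93), *Sun1* to *Capn1* (0.96) and *Sec22c* (0.95), and *Sun2* to *Dirc2* and *Eps15* (0.98 each). *Syne1* was closest to *Cnot2* (0.93) and *Scap* (0.91), *Syne2* to *Sptbn1* (0.91) and *Zfp609* (0.89), and *Syne3* to *Cic* and *Myo9b* (0.97 each). The libraries share the age and genotype groups, so these values are descriptions.

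Other genes of the lamina, the nuclear envelope and the LINC complex were followed as a list of 28 symbols, of which 24 were tested at P21 and 25 at the other ages. EdgeR and DESeq2 called 0 of them at P1 and P14, where 1 each had an unadjusted edgeR *P*-value under 0.05. At P21, where 4.67% of all genes were called, 1 was called, *Tmem43*, which encodes the emerin partner LUMA: it was 33.7 to 46.3 CPM in WT and 63.6 to 85.8 CPM in KO muscle, without overlap (log2 fold change 0.84 ± 0.12, edgeR adjusted *P*=0.0023). At P35 it was 35.3 to 47.5 CPM in WT and 61.7 to 87.6 CPM in KO muscle (0.87 ± 0.12, edgeR adjusted *P*=0.000609). *Tmem201*, the gene of SAMP1, an inner membrane protein that binds emerin and takes part in nuclear movement, was called lower at P35, at 69.3 to 74.1 CPM in WT and 42.6 to 46 CPM in KO muscle (-0.66 ± 0.06, edgeR adjusted *P*=0.000112). At an adjusted *P*-value under 0.05 with no fold threshold, 5 genes of the list were higher and 3 lower at P21, beside 11.4% and 9.57% of all genes, and 7 were higher and 9 lower at P35, beside 21.4% and 20.1%. With library totals the *Tmem201* value at P35 was -0.26 and below the fold threshold. The list's median log2 fold change at P35 was 0.21, against 0.04 for all genes. With library totals 2 genes of the list were called at P21 and 10 at P35, beside 1157 of 15179 and 4676 of 15595 genes.

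Genes that position the nuclei of muscle fibers (motors, their adaptors, centrosome proteins moved to the nuclear envelope, and desmin and plectin) formed a second list of 32 genes, all tested. At P1 and P14 both edgeR and DESeq2 called 0, and 1 and 3 had an unadjusted edgeR *P*-value under 0.05. At P21, 3 were called and all were higher, beside 3.18% of all genes called higher: *Kif5c*, a heavy chain of kinesin-1, *Des*, the gene of desmin, and *Akap6*, which anchors the microtubule organizing center at the nucleus. *Des* was at 2228 to 2643 CPM in WT and 3799.8 to 5019 CPM in KO muscle (0.81 ± 0.10, edgeR adjusted *P*=0.00109). *Akap6* was at 70.2 to 95.3 and 124 to 162 CPM (0.73 ± 0.12, edgeR adjusted *P*=0.00307). *Kif5c* was a gene of low level, at 0.418 to 0.821 and 1.25 to 3.54 CPM (1.97 ± 0.39, edgeR adjusted *P*=0.00762). The *Kif5c* call was lost without any one WT library or KO replicate 2 or 4 (log2 fold change 1.69 to 2.16), and that of *Akap6* without WT replicate 1 or KO replicate 2 (0.68 and 0.71).

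At P35, 5 genes of the list were called higher and 2 lower, beside 8.49% and 7.52% of all genes. *Kif5c* (2.28 ± 0.27), *Des* (0.78 ± 0.12) and *Akap6* (0.72 ± 0.09) were joined by *Klc1*, a kinesin-1 light chain, at 60.1 to 72.3 CPM in WT and 93 to 135 CPM in KO muscle (0.74 ± 0.13, edgeR adjusted *P*=0.00203). *Bin1*, the gene of amphiphysin 2, which is mutated in another form of centronuclear myopathy, was called higher as well (0.74 ± 0.16, edgeR adjusted *P*=0.00598) and is named here after its value was seen. *Plec*, the gene of plectin, was called lower, at 788 to 1016 CPM in WT and 519 to 674 CPM in KO muscle (-0.63 ± 0.12, edgeR adjusted *P*=0.00239). *Pard6b*, a polarity gene at 0.983 to 1.41 CPM in WT and 0.337 to 0.434 CPM in KO muscle, was called lower too (-1.49 ± 0.21, edgeR adjusted *P*=0.000636). The *Bin1* call was lost without any one library other than KO replicate 2 (0.63 to 0.79), and the *Plec* call without WT replicate 3 or KO replicate 1 (-0.58 each) and with library totals (-0.22). The median of this list was -0.13 at P35, against 0.04 for all genes. With library totals 5 genes of the list were called at P21, beside 1157 of 15179 genes.

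**Figure D5:**
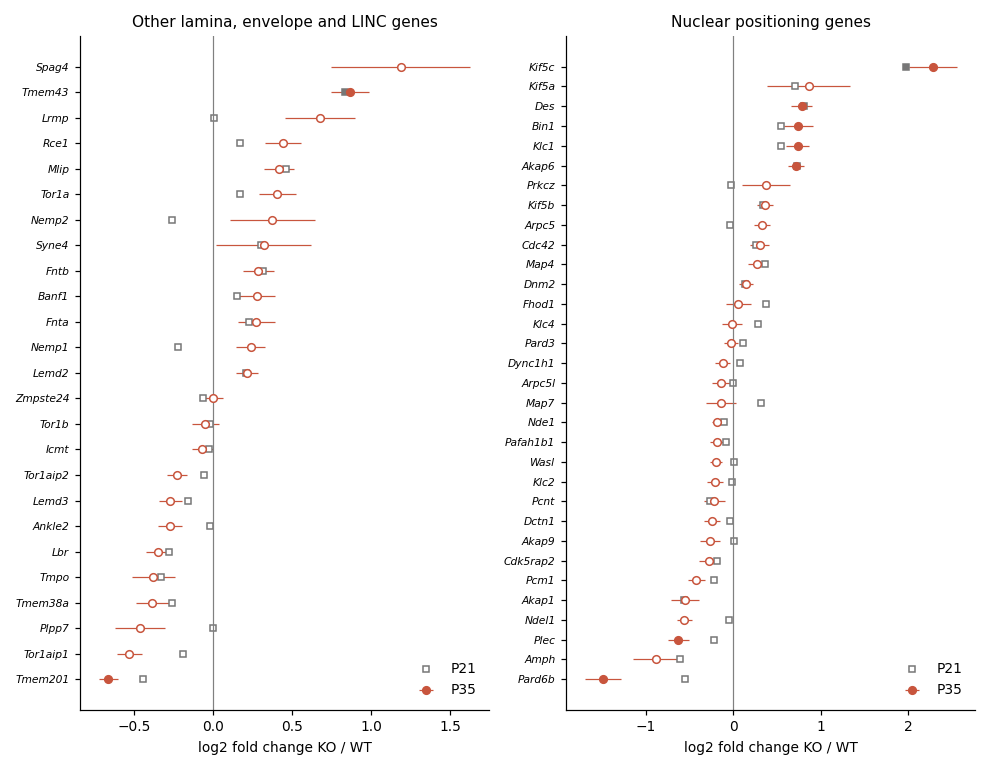
Log2 fold change of KO against WT for the other lamina, envelope and LINC genes (left) and the nuclear positioning genes (right), at P21 (squares) and at P35 (circles with standard errors), filled where called. *Tmem43* (0.87) and *Tmem201* (-0.66) are the filled circles on the left, and the 7 filled circles on the right run from *Pard6b* (-1.49) to *Kif5c* (2.28).

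Markers of some other cell types differed between genotypes at the ages at which *Lmna* and *Syne2* were called. Of all genes tested, edgeR called 4.67% at P21 and 16% at P35, and 35.1% and 50.3% had an unadjusted edgeR *P*-value under 0.05. DESeq2 called 1043 of 15179 genes at P21 and 2997 of 15595 at P35. The counts below are to be read beside these shares. The summed level of 5 leukocyte and macrophage genes was 29.0 to 34.3 CPM in WT and 42.9 to 55.0 CPM in KO muscle at P21, and 28.8 to 35.8 and 41.6 to 61.8 CPM at P35, with 2 and 3 of the 5 genes called higher. The 3 satellite cell genes summed to 10.7 to 13.6 CPM in WT and 4.94 to 6.93 CPM in KO muscle at P21, and to 7.37 to 9.69 and 2.76 to 3.74 CPM at P35, with 2 of 3 called lower at each age. The 5 endothelial genes summed to 576 to 867 CPM in WT and 454 to 545 CPM in KO muscle at P21, where edgeR called 0, DESeq2 called 1 and 4 had an unadjusted edgeR *P*-value under 0.05, and to 339 to 630 and 292 to 365 CPM at P35, with 3 called lower. The 5 fibroblast genes overlapped between genotypes at both ages. For them edgeR called 0 at P21 and P35, DESeq2 called 0 and 1, and 4 and 2 had an unadjusted edgeR *P*-value under 0.05. The 3 Schwann cell genes summed to 35.1 to 307.2 CPM in WT and 154 to 658 CPM in KO muscle at P35, where edgeR called 0, DESeq2 called 2, and 3 had an unadjusted edgeR *P*-value under 0.05. The 3 erythroid genes summed to 1836 to 2525 CPM in WT and 940 to 1918 CPM in KO muscle at P21, where edgeR called 0, DESeq2 called 1, and 2 had an unadjusted edgeR *P*-value under 0.05. The 6 myofiber genes summed to 107933 to 149532 CPM in WT and 67113 to 90956 CPM in KO muscle at P35, with edgeR calling 1 lower, DESeq2 calling 4, and 4 at an unadjusted edgeR *P*-value under 0.05. At P21 they summed to 140981 to 184495 CPM in WT and 119430 to 135251 CPM in KO muscle without overlap, where edgeR called 0, DESeq2 called 1, and 4 had an unadjusted edgeR *P*-value under 0.05. No marker of the lists in this paragraph was at 0 in all libraries of a group. Of the keratinocyte genes, *Krt5* was at 0 in all WT libraries of P14 and of P21, and *Krt1* in all KO libraries of P21. The part of these cells, and of the lower mitochondrial share, in the changes of *Lmna*, *Emd*, *Sun1* and *Syne2* was not tested.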

How the data were processed

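RNA of TA muscle was measured in 32 libraries, whose genotypes, ages and replicate numbers come from the sample labels. Expected counts per gene and library were deposited by the authors without scaling or pooling. The submitters' processing notes name STAR 2.6.1, RSEM 1.2.22 and GRCm38, whereas HTSeq is named in the methods. The libraries were poly(A)-selected and directional, and the annotation release and strand setting of the counting are not given in the sources used here. A share of 4.26% of values was not whole, and counts were rounded. No molecular identifiers are named, so counts may include PCR copies.

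Counts were analysed in R 4.3.3 with edgeR 4.0.16 (filterByExpr, TMM, glmQLFit, glmQLFTest; two-sided, Benjamini-Hochberg adjustment over all genes tested), for genotypes within an age, for neighboring ages within a genotype and for interactions over 18583 genes. Intervals of 95% were taken from the standard error. The tests were checked on simulated data. Ratios were compared by exact permutation tests. Coordinates and merged exon lengths came from GENCODE M21 (GRCm38), and promoter windows from RefSeq (GRCm38.p6). Named genes were the 9 members, *Mtm1*, up to 6 called genes per list and age by adjusted *P*-value, marker lists, and the 2 genes most like each member, of which one is not reported here. The members and lists were chosen with earlier results of these data known.

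Replicate numbers were shared by the groups in the labels. Within an age, each library was centred on its group mean. Libraries of one number in both genotypes correlated in all pairs only at P14 (r=0.19 to 0.588). There KO replicate 1 correlated more with WT replicate 2 (r=0.369) than with WT replicate 1 (r=0.252), and the labels give no pairing. The main tests were therefore unpaired at every age, and the pairing was fitted as an alternative. Alternatives were DESeq2 1.42.0, other scalings and filters, all 32 libraries in one fit, 16 libraries for interactions, the replicate block, removal of mitochondrial genes, other thresholds and leaving out each library. The interactions between P35 and P14 or P1 were added after seeing the data. Figures were made with python 3.11.15, pandas 2.3.3 and matplotlib 3.10.9.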

Additional observations from a re-analysis of the deposited data

Results flagged for a closer look

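Of 72 groups of 4 libraries checked (9 genes in 8 groups), 8 held a library apart from the other 3 by Dixon's criterion at the 95% level. Chance flags about 1 in 20 groups. *Lmna* in KO muscle at P21 had replicate 2 at 242 CPM. *Lmnb2* in WT muscle at P1 had replicate 1 at 33.6 CPM, below the rest. *Sun1* had replicate 1 at 70.7 CPM in WT muscle at P35 and replicate 4 at 39.8 CPM in KO muscle at P1. *Syne1* and *Syne3* in KO muscle at P35 both had replicate 2 apart, at 61.9 and 5.24 CPM. *Emd* had replicate 1 at 29.5 CPM in WT muscle at P35 and replicate 4 at 23.1 CPM in KO muscle at P14.

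The genotype difference itself differed between ages for 3 genes in edgeR's interaction test. For *Lmna* it was larger at P35 than at P14 by 1.14 and than at P1 by 1.58 on the log2 scale. For *Syne2* the P35 value less the P14 value was -0.60 and the P35 value less the P1 value was -0.69. The former fell short of the threshold without a filter, with the 16 libraries of both ages alone, with the replicate block, with library totals (-0.25) and without KO replicate 1, 2 or 4 or WT replicate 1, 3 or 4 of P14, or KO replicate 3 or 4 or WT replicate 1, 3 or 4 of P35 (-0.63 to -0.50). For *Emd* the P35 value exceeded the P1 value by 0.42.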

How the results depend on the processing

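The number of members called was 0, 0, 1 and 2 between genotypes from P1 to P35, 5, 0 and 0 for the age steps in WT, 4, 1 and 1 for those in KO muscle, and 0, 0 and 0 for neighboring interactions, with 2 for P35 against P14 and 3 for P35 against P1. *Lmna* at P21 and P35 was called under every alternative run. With an adjusted *P*-value under 0.05 and no fold threshold, the number was 4 at P21, 9 for P14 against P1 in WT, 2 and 1 for the later steps in WT, 5 and 4 for those in KO muscle, and 5 for the interaction of P35 with P1. Without a filter it was 1 at P35, 1 for P35 against P21 in WT, 2 for P21 against P14 in KO muscle and 1 for the interaction of P35 with P14. Requiring 10 counts in every library gave 1 at P35 and 2 for P14 against P1 in KO muscle. DESeq2 gave 1 for each later step in WT and 2 for P21 against P14 in KO muscle. One fit of all 32 libraries gave 2 and 1 for the later steps in WT and 2 for P21 against P14 in KO muscle, and the fit of 16 libraries gave 1 for the interaction of P35 with P14.

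With the replicate block the number was 1 at P35, 1 for P35 against P21 in WT, 0 and 0 for the later steps in KO muscle and 1 for the interaction of P35 with P14. At P14, where same-numbered libraries correlated, the block called 98 genes in place of 5 but 0 members. *Lmna* was at 0.30 and *Sun2* at -0.19 (edgeR adjusted *P*=0.0497) with it. The block changed no other count of members, and among the named list genes *Akap6* at P21 and *Bin1* and *Plec* at P35 lost their calls.

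Library totals in place of TMM turned the direction of *Sun2* at P21 (0.16) and P35 (0.19) and in the interaction of P35 with P14 (0.29). From P1 to P14 they turned *Sun1* (-0.49), *Syne1* (-0.20) and *Syne2* (-0.54) in WT, and *Sun1* (-0.40), *Sun2* (-0.10), *Syne1* (-0.026) and *Syne2* (-0.60) in KO muscle, steps over which the median gene moved to -0.85 and -0.81. They added calls of *Emd* (0.85) and *Sun1* (0.68) at P35, where the median gene was at 0.44. They also added calls of *Emd* (0.63) and *Sun1* (0.58) in the interaction of P35 with P14 (median gene 0.36). In that with P1 they added *Sun1* (0.67, median gene 0.42). They left *Sun2* in WT (0.26) short of the call from P1 to P14. They gave 1 member for P21 against P14 in WT, 0 and 0 for the later steps in KO muscle, 2 and 10 other lamina and envelope genes at P21 and P35, and 5 positioning genes at P21. The cause of these changes was not tested.

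Leaving out each library in turn gave 1 to 2 members at P35, 4 to 6 for P14 against P1 in WT and 3 to 4 in KO muscle, 0 to 2 and 0 to 1 for the later steps in WT, 0 to 2 for each of those in KO muscle, 1 to 2 for P35 against P14 and 3 to 4 for P35 against P1. Where the count at P35 was 1, 1937 to 2215 of all genes were called, in place of 2496. For P21 against P14 in KO muscle, fits with 0 members called 396 to 844 genes and the fit with 2 called 1884, in place of 1097. For P35 against P21 in KO muscle these were 190 to 367 and 901, in place of 631. In WT, the fit with 2 members for P21 against P14 called 1364, in place of 848. That with 1 for P35 against P21 called 216, in place of 368. With 1 member for the interaction of P35 with P14, 1110 to 1656 genes were called, in place of 1585. The ratios at P21 and P35 kept their direction with any one library left out, whereas at P14 *Lmna* to *Lmnb1* ranged from -0.05 to 0.36 and *Syne1* to *Syne2* from -0.04 to 0.11. Leaving out a library added calls of *Lmnb1* (-0.99) and *Lmnb2* (-1.10) for P21 against P14 in WT without P14 replicate 4, *Lmnb2* in KO muscle without P14 replicate 4 (-1.35) and without P21 replicate 1 for P35 against P21 (-0.60), *Syne3* for P35 against P21 in KO muscle without P35 replicate 2 (-0.97), *Syne1* in WT for P14 against P1 without P1 replicate 2 (0.59) or P14 replicate 4 (0.64) and for P35 against P21 without P21 replicate 2 (-1.0), *Emd* for the interaction of P35 with P14 without WT P35 replicate 1 (0.35), and *Sun1* for that with P1 without WT P35 replicate 1 (0.37) or KO P35 replicate 2 (0.35). A further 30 of 939 values, and 71 of 1529 with a library left out, changed sign while not called and with 95% intervals that held 0 under both settings. Each group held 4 libraries and each member 122 counts or more, and the part of counting error in the spread between libraries was not tested.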
